A study of Mus musculus with 7 samples.

Results

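Transcripts of 10 Polycomb genes were followed through meiotic maturation of mouse oocytes, from the germinal vesicle (GV) stage to metaphase II (MII), with and without BYBX, a ligand that binds RNA G-quadruplexes (rG4s, stacked folds of G-rich RNA). The genes were chosen by symbol, as subunits of the 2 Polycomb repressive complexes, and not by a rule on their values, although earlier results of these data were known. They were Ezh1, Ezh2, Eed, Suz12 and Jarid2 of PRC2 and Ring1, Rnf2, Pcgf1, Pcgf6 and Bmi1 of PRC1, and each matched 1 of the 25912 entries listed. Messenger RNA of 10 oocytes a library was amplified by Smart-seq2, a full-length method for very small inputs that here started from oligo-dT primers and so reads RNA with a poly(A) tail. There were 2 libraries of GV oocytes (labelled control, no treatment), 3 of MII oocytes given only DMSO, the solvent of the ligand (labelled control) and 2 of MII oocytes cultured with BYBX (labelled treated). All oocytes came from ovaries of female C57BL/6 mice, 4 weeks old, collected 44 h after a gonadotropin injection, and culture to MII took 16 h. The dose of BYBX is not given in the labels of these libraries. The study describes that few oocytes cultured with BYBX extruded a polar body and that their spindles were abnormal, and how the oocytes of the BYBX libraries were picked is not given in the sources used here. Nothing in the labels says that libraries came from separate animals, and p-values therefore measure only the spread between these libraries, which may be technical.

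Polycomb proteins keep genes silent through marks on histones. PRC2 methylates lysine 27 of histone H3: EZH1 or EZH2 carries the catalytic domain, EED and SUZ12 are needed for its activity, and JARID2 is an accessory subunit that helps the complex bind chromatin. PRC1 attaches ubiquitin to histone H2A: RING1 or RNF2 is the E3 ligase, and it pairs with 1 of several PCGF proteins, which sets the kind of PRC1 that forms. In mouse oocytes both complexes are known to shape the maternal chromatin that the embryo inherits, and the transcripts measured here are part of a store laid down before transcription stops in the fully grown oocyte.

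The values were FPKM (fragments mapped, relative to transcript length and library size) that the authors had scaled to an RNA spike-in, so that they were meant to follow the amount of RNA per library. The summed FPKM ran from 402113 to 489569 in GV, from 109732 to 127254 in MII with DMSO and from 201482 to 246710 in MII with BYBX. Direction therefore depended on the scale for most Polycomb genes, and each comparison below is given on the deposited scale and then after scaling every library to the same total FPKM or centring it on its median gene. Each of the 8 oocyte markers passed 1 FPKM in at least 1 library (Figla only in GV and BYBX libraries, at 0.114, 0.0324 and 0.0929 FPKM with DMSO), with a summed level of 8779 to 12073 FPKM in GV, 1673 to 1820 in MII with DMSO and 4912 to 4919 in MII with BYBX. Of 10 granulosa and cumulus cell markers, 4 passed 1 FPKM in any library, with sums of 9.05 to 16.5, 2.24 to 2.59 and 3.77 to 4.21 FPKM in the same order, and Ptx3 was listed at 0 in all 7 libraries. These sums moved with the groups in the same order as most Polycomb genes, and their part in the results was not tested. Erythrocyte markers summed to at most 0.117 FPKM over 3 of 5. Hba-a1 and Hba-a2 each had 2 entries of the same name and were left out of that sum. Leukocyte markers (3 of 3 found) summed to at most 0.125 FPKM, with Ptprc at 0 throughout. In such libraries fewer oocytes and less RNA per oocyte cannot be told apart.

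Transcripts of the 10 genes were read from the GENCODE vM21 annotation of GRCm38, the assembly also called mm10, taking the longest protein-coding transcript with a RefSeq match. None of the 10 held a predicted rG4, defined as 4 G-runs, each 3 or more long, and loops of 1 to 7 bases, against 18.0% of the transcripts of all tested names. In maturing oocytes the cytoplasmic polyadenylation element (CPE, searched as TTTTAT or TTTTAAT on the transcript strand) and the nearby polyadenylation signal (AATAAA or ATTAAA) are the textbook elements through which a stored message has its poly(A) tail lengthened. Within the last 100 bases of the 3′ UTR a CPE stood in 3 of the 10, Eed, Rnf2 and Bmi1, against 20.3% of tested transcripts. A polyadenylation signal stood there in all except Rnf2, against 81.7%, and a CPE anywhere in the 3′ UTR was found in 8 of 10, against 61.4%. The most copies were in Bmi1 (10) and Suz12 (9), and none was found in Jarid2 or Pcgf1. A match of letters is a description and no measured site, and the lack of a match does not show that no rG4 forms. Other transcripts of each gene and folds outside the definition above were not searched. The study mapped rG4s in oocytes with an antibody, and those data were not used here.

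The tails of 5 transcripts are printed because oligo-dT priming starts at a poly(A) tail. These are annotated ends, and the ends used in these oocytes were not measured. The Rnf2 gene, on the minus strand, is annotated down to chr1:151458004, past the end of the transcript used. Printed are the 3 transcripts with a CPE near the end, with the CPE in capitals, and Pcgf1 and Pcgf6, with the polyadenylation signal in capitals. The choice does not sort them by level. With DMSO, mean MII levels were 31.7% of GV for Eed, 47.3% for Rnf2, 29.04% for Pcgf1 and 18.5% for Pcgf6. Only Bmi1 overlapped between these groups. A link between a CPE and the level was not tested. All windows lie in the 3′ UTR of the last exon, on the transcript strand, 5′ to 3′.
Eed CPE: aagctgtgttatTTTTATtgtgatggaaac
Rnf2 CPE: gaatgtatgtgtTTTTATctgtctatggga
Bmi1 CPE: tcaaaatttgtcTTTTAATaaaacaacaga
Pcgf1 signal: tttattttttgaAATAAAtgctttt
Pcgf6 signal: cttctgacatttAATAAAaatttattttag
The capitals lie at chr7:89954715-89954720 on the minus strand for Eed (exon 12 of 12), chr1:151469445-151469450 on the minus strand for Rnf2 (exon 7 of 7) and chr2:18686606-18686612 on the plus strand for Bmi1 (exon 10 of 10). For Pcgf1 they lie at chr6:83080835-83080840 on the plus strand (exon 9 of 9) and for Pcgf6 at chr19:47033633-47033638 on the minus strand (exon 10 of 10). In Bmi1 the CPE overlaps the polyadenylation signal, which starts inside it at chr2:18686610 and ends 14 bases before the transcript does.

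In GV oocytes the Pcgf genes and the PRC2 core were among the abundant transcripts. Pcgf1, the PCGF of the variant PRC1 that binds unmethylated CpG islands, was the highest at 469 and 417 FPKM, above 99.5% of all entries. Pcgf6, the PCGF of the variant PRC1 with MGA and L3MBTL2, followed at 228 and 158 FPKM. Eed (131 and 120 FPKM), which reads trimethylated H3 within PRC2, and Ezh2 (124 and 114 FPKM), the methyltransferase typical of dividing cells, overlapped each other. Suz12 (88.7 and 106 FPKM), the scaffold of PRC2, and Bmi1 (75.5 and 93.3 FPKM), a PCGF of canonical PRC1, overlapped as well. Below them stood Rnf2 (53.7 and 38.3 FPKM), the E3 ligase of PRC1, and then 2 genes whose ranges overlapped, Ezh1 (20.7 and 12.8 FPKM), the methyltransferase typical of resting cells, and Jarid2 (17.7 and 15.5 FPKM). Ring1, the paralog of Rnf2, was at 0.308 and 0.282 FPKM in GV, at 0, 0 and 0.00861 FPKM in MII with DMSO and at 0 and 0.182 FPKM in MII with BYBX, so it stayed below 1 FPKM everywhere and was not tested. The other 9 were among the 9202 entries that averaged 1 FPKM or more over the 3 conditions, and none did so through 1 condition alone, since their lowest value in any library was 4.37 FPKM.

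**Figure D1:**
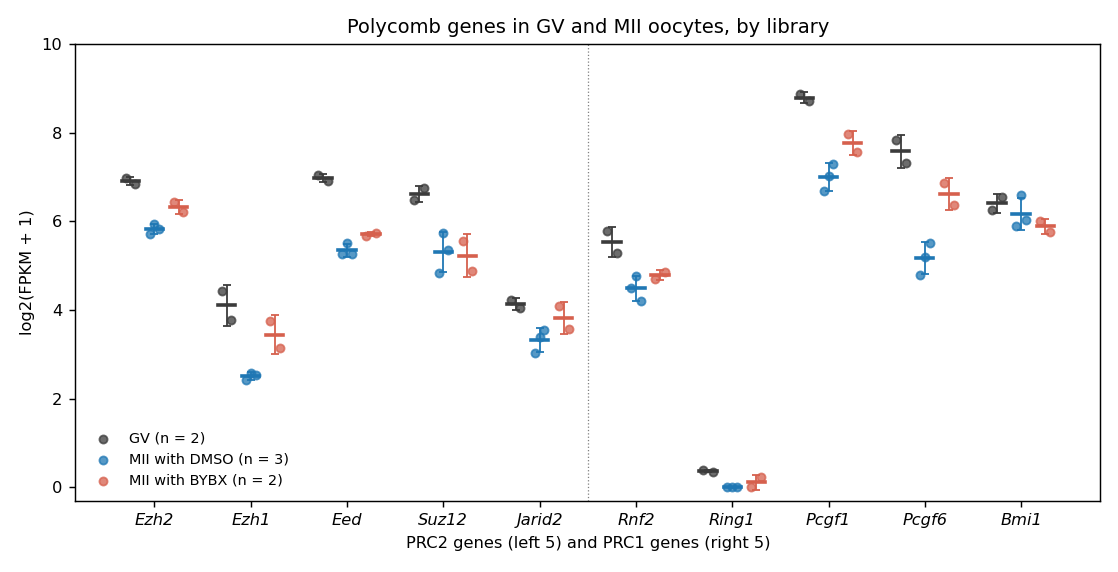
The y axis is log2(FPKM + 1) on the deposited scale and the x axis names the 10 Polycomb genes, with PRC2 on the left and PRC1 on the right. Points are libraries, thick bars are means and thin bars are SD. The 2 GV points lie above the 3 DMSO points for every gene except Bmi1, and Ring1 lies near 0 in all 7 libraries.

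The comparison of MII with DMSO against GV asks how these stored transcripts changed over maturation. On the deposited scale 8 of the 9 tested Polycomb genes were lower in MII by limma's test across all entries (adjusted p under 0.05) and 0 were higher, also at an unadjusted p under 0.05. That was the rule for the oocyte as a whole: 88.3% of all tested entries were lower and 0.272% higher. Whether libraries of different groups overlapped is given for single genes as a description. How many of all entries did not overlap was not computed, so a lack of overlap is no trait of these genes. The median log2 fold change was -1.31 over the 9 genes and -1.83 over all entries.

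All 4 genes of the PRC2 core fell on that scale. Ezh2 went from 124 and 114 FPKM in GV to 51.7, 60.6 and 55.5 FPKM in MII with DMSO, which is 47.0% of the GV mean, with a log2 change of -1.08 ± 0.24 (SE; n = 2 and 3; limma adjusted p = 0.00082). Ezh1 went from 20.7 and 12.8 to 4.37, 5.004 and 4.78 FPKM, or 28.2% of the GV mean, with a log2 change of -1.60 ± 0.27 (limma adjusted p = 8.4e-05). For both methyltransferases every MII library lay below every GV library. Eed stood at 37.2, 44.8 and 37.6 FPKM in MII with DMSO, 31.7% of its GV mean, with a log2 change of -1.64 ± 0.24. Suz12 was the most variable of the core, at 27.5, 52.3 and 39.7 FPKM, and its highest MII library still lay below the lowest GV library, with a log2 change of -1.31 ± 0.31. Jarid2, the accessory subunit, kept the largest share of its GV level among the PRC2 genes, 54.9%, at 7.15, 9.50 and 10.7 FPKM. Its log2 change of -0.81 ± 0.26 passed the test (limma adjusted p = 0.010), and without GV replicate 1 it did not (limma adjusted p = 0.073).

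The PRC1 genes were spread more widely. Rnf2 stood at 21.6, 26.3 and 17.4 FPKM in MII with DMSO, 47.3% of the GV mean, and fell by 1.04 on the log2 scale (SE 0.27, limma adjusted p = 0.0023). Pcgf1 stood at 101, 129 and 156 FPKM, 29.04% of the GV mean, with a log2 change of -1.80 ± 0.26. Pcgf6 had the deepest fall of the members, to 26.8, 35.8 and 44.7 FPKM, 18.5% of the GV mean, with a log2 change of -2.41 ± 0.29 (limma adjusted p = 3.2e-06). For these 3 genes the groups did not overlap, in a comparison where 88.3% of all tested entries were lower. Bmi1 was the exception, at 58.8, 95.1 and 64.5 FPKM against 75.5 and 93.3 FPKM in GV: MII replicate 2 was the highest library of the 5 and the groups overlapped. Its log2 change of -0.23 ± 0.27 did not pass (limma adjusted p = 0.42, 95% interval -0.83 to 0.36), and 95.6% of all tested entries had a lower log2 change than Bmi1, against 34.9% for Pcgf6.

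The order of the genes differed between the stages. By group means Bmi1 moved from the sixth place in GV to the second in MII with DMSO, behind Pcgf1, where its range overlapped that of Ezh2. Pcgf6 moved from the second place to the sixth, with a range that overlapped those of Eed and Suz12. The 10 genes together made up 0.247% and 0.268% of the summed FPKM in GV and 0.307%, 0.371% and 0.339% in MII with DMSO, a higher share in each of the 3 MII libraries. After scaling to the same total FPKM, 1 member was lower (Pcgf6) and 4 were higher (Ezh2, Jarid2, Rnf2 and Bmi1), where 49.5% of all entries were lower and 23.3% higher. After median centring 0 were lower and 8 higher, Pcgf6 being the member not called, where 26.7% of all entries were lower and 48.8% higher. The median of all entries was -0.56 in the same-total comparison and 0.47 after centring.

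The comparison of MII with BYBX against MII with DMSO asks how the ligand changed the transcripts present at MII. On the deposited scale 3 of the 9 genes were higher with BYBX (Ezh1, Pcgf1 and Pcgf6), and 0 were lower by limma, also at an unadjusted p under 0.05. Over all entries 65.2% were higher and 0.0326% lower, with a median log2 change of 0.84 against 0.50 over the 9 genes. Without BYBX replicate 1 the count was 1, where 55.8% of all entries were higher, since Ezh1 (limma adjusted p = 0.13) and Pcgf1 (limma adjusted p = 0.16) no longer passed.

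Ezh1 stood at 12.5 and 7.79 FPKM with BYBX, both above the 3 DMSO libraries at 4.37 to 5.004 FPKM, with a log2 change of 0.93 ± 0.27 (limma adjusted p = 0.0088). The other PRC2 genes did not pass. Ezh2 was at 85.8 and 73.3 FPKM, above all 3 DMSO libraries, with a log2 change of 0.50 ± 0.24 (limma adjusted p = 0.083, 95% interval -0.02 to 1.02). Eed was at 50.2 and 52.8 FPKM, also above the DMSO libraries, with a log2 change of 0.37 ± 0.24 (limma adjusted p = 0.19). Suz12 was at 46.3 and 28.4 FPKM, inside the DMSO range of 27.5 to 52.3 FPKM, with a log2 change of -0.085 ± 0.31 (limma adjusted p = 0.81), and 1.79% of all entries had a lower change. Jarid2 was at 15.9 and 10.8 FPKM, the lower of them just above the highest DMSO library, with a log2 change of 0.50 ± 0.26 (limma adjusted p = 0.11).

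In PRC1 the genes that rose on the deposited scale were 2 PCGF genes of variant complexes. Pcgf6 was at 116 and 81.0 FPKM with BYBX, 2.75 times the DMSO mean, with a log2 change of 1.44 ± 0.29 (limma adjusted p = 0.00079), and it passed without each library in turn. Pcgf1 was at 249 and 190 FPKM, 1.71 times the DMSO mean, with a log2 change of 0.77 ± 0.26 (limma adjusted p = 0.019), and it also no longer passed without DMSO replicate 1 (limma adjusted p = 0.070). For both genes the BYBX libraries lay above the DMSO libraries. Of all tested entries 73.1% had a lower change than Pcgf6 and 46.4% a lower change than Pcgf1, so Pcgf1 rose less than the median entry. Rnf2 was at 25.1 and 28.2 FPKM, overlapping the DMSO range of 17.4 to 26.3 FPKM, with a log2 change of 0.30 ± 0.27 (limma adjusted p = 0.33). Bmi1 was at 63.3 and 53.4 FPKM, overlapping the DMSO libraries at 58.8 to 95.1 FPKM, with a log2 change of -0.29 ± 0.27 (limma adjusted p = 0.36), and 0.467% of all entries had a lower change. After scaling to the same total FPKM, Pcgf6 was higher, Suz12 and Bmi1 were lower and 6 were not called, where 39.9% of all entries were higher and 8.22% lower around a median of 0.34. After median centring 7 were lower and 0 higher, all but Ezh1 and Pcgf6 being lower, where 43.9% of all entries were lower and 18.4% higher around a median of -0.44.

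**Figure D2:**
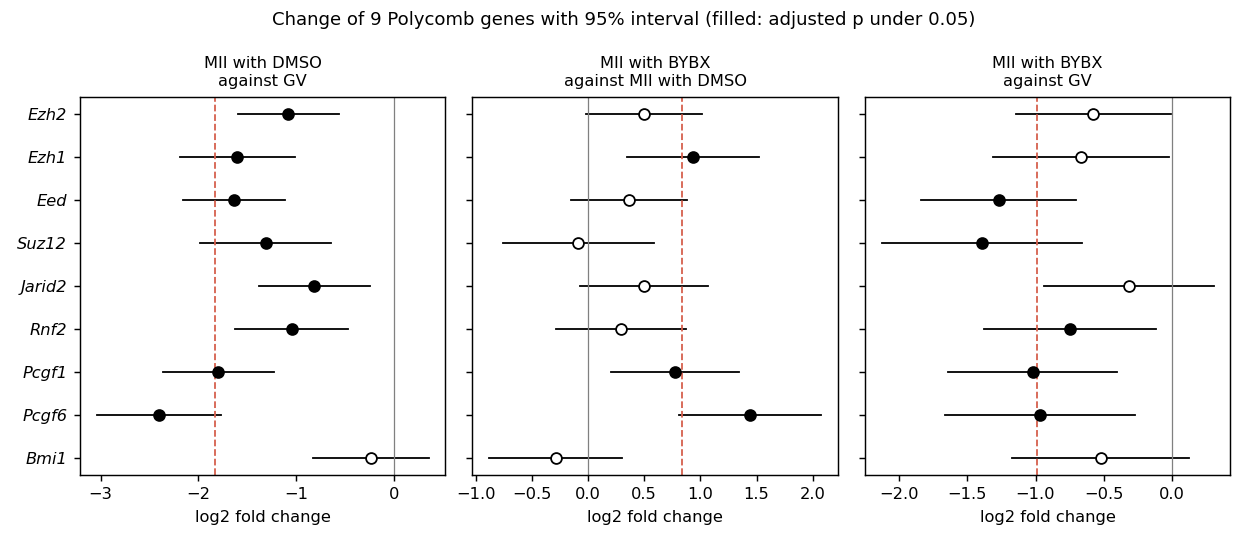
The x axes give the log2 fold change on the deposited log2(FPKM + 1) scale for the 9 tested Polycomb genes, with lines for the 95% interval and filled points for an adjusted p under 0.05. The dashed line is the median of all 9202 tested entries. Relative to that line Bmi1 lies farthest to the right in the comparison with GV (-0.23) and farthest to the left in the comparison of BYBX with DMSO (-0.29), and Pcgf6 lies on the opposite side of the line in both. The same DMSO libraries enter both of these comparisons, with opposite sign.

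The comparison of MII with BYBX against GV asks how far the treated oocytes stood from their starting point. It shares its libraries with the comparisons above and is no independent evidence. Those comparisons also share the DMSO libraries, so a deviation in these enters both with opposite sign, and opposite changes in them are not separate evidence. On the deposited scale 5 of the 9 genes were lower than in GV (Eed, Suz12, Rnf2, Pcgf1 and Pcgf6) and 0 were higher, also at an unadjusted p under 0.05, where 69.2% of all entries were lower and 0.315% higher. Eed was the steadiest, at 40.9% of its GV mean, with a log2 change of -1.27 ± 0.26 (limma adjusted p = 0.00091). Suz12 was at 38.3% of its GV mean, with a log2 change of -1.39 ± 0.34 (limma adjusted p = 0.0027). Both passed without each library in turn, whereas Rnf2 (-0.75 ± 0.29), Pcgf1 (-1.02 ± 0.29) and Pcgf6 (-0.97 ± 0.32) did not pass without GV replicate 1 or without BYBX replicate 2, and Rnf2 also not without BYBX replicate 1. Without GV replicate 1, or without BYBX replicate 2, the count was 2, where 51.7% and 58.5% of all entries were lower.

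The other 4 members did not pass in that comparison. Ezh1 (-0.67 ± 0.30, limma adjusted p = 0.062) passed without GV replicate 2 (limma adjusted p = 0.025) or without BYBX replicate 1 (limma adjusted p = 0.024). Ezh2 had a log2 change of -0.58 ± 0.26 (limma adjusted p = 0.065). Jarid2, at 80.5% of its GV mean, overlapped the GV libraries, with a log2 change of -0.31 ± 0.29 (limma adjusted p = 0.34). Bmi1, at 69.1% of its GV mean, did not overlap GV, with a log2 change of -0.52 ± 0.30 (limma adjusted p = 0.14). After scaling to the same total FPKM 0 members were called either way by limma (1 higher and 0 lower at an unadjusted p under 0.05), where 13.3% of all entries were lower and 5.3% higher around a median of -0.17, and after median centring 1 was higher (Jarid2) and 0 lower, where 13.6% were lower and 15.2% higher around a median of 0.04. The 10 genes made up 0.269% and 0.261% of the summed FPKM with BYBX, against 0.247% and 0.268% in GV.

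Ratios of FPKM between paralogs within a library do not depend on how libraries were scaled. The tests used log2 ratios of FPKM + 1, which do depend on it, and log2 ratios with no pseudocount, added after seeing the data, are given beside them. The ratio of Ezh2 to Ezh1 in FPKM was 6.01 and 8.87 in GV, 11.8, 12.1 and 11.6 in MII with DMSO and 6.84 and 9.40 in MII with BYBX. The DMSO libraries lay above all 4 others, and the GV and BYBX libraries overlapped. The log2 ratio differed by 0.52 for MII with DMSO against GV and by -0.43 for BYBX against DMSO, or by 0.70 and -0.56 with no pseudocount. Exact permutation (two-sided) gave p = 0.1 for each, with and without the pseudocount, the smallest that 2 libraries against 3 allow, and 0.18 for the tested ratios after Benjamini-Hochberg adjustment over the 9 ratio tests.

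Ratios among the PCGF genes were taken in the same way. The ratio of Pcgf6 to Pcgf1 was 0.486 and 0.380 in GV, 0.265, 0.278 and 0.287 in MII with DMSO and 0.464 and 0.427 with BYBX, so the DMSO libraries lay below all others. The log2 differences were -0.61 for DMSO against GV and 0.67 for BYBX against DMSO (exact permutation p = 0.1 for each, adjusted 0.18), and 0.06 for BYBX against GV, where the libraries overlapped. The ratio of Bmi1 to Pcgf1 was 0.161 and 0.224 in GV, 0.580, 0.738 and 0.414 in MII with DMSO and 0.254 and 0.282 with BYBX. The 3 groups did not overlap in it. Its log2 difference was 1.56 for DMSO against GV (exact permutation p = 0.1, adjusted 0.18), -1.06 for BYBX against DMSO (exact permutation p = 0.2, adjusted 0.3) and 0.50 for BYBX against GV (exact permutation p = 0.3333, the smallest that 2 against 2 allow). With no pseudocount the differences of these ratios were -0.64, 0.69 and 0.05 for Pcgf6 to Pcgf1 and 1.57, -1.07 and 0.50 for Bmi1 to Pcgf1, in the same order of comparisons. None of the ratio tests could pass 0.05 in this design. Within the sum of the 3 PCGF genes Bmi1 took 9.77% and 14.0% in GV, 31.5%, 36.6% and 24.3% in MII with DMSO and 14.8% and 16.5% with BYBX.

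**Figure D3:**
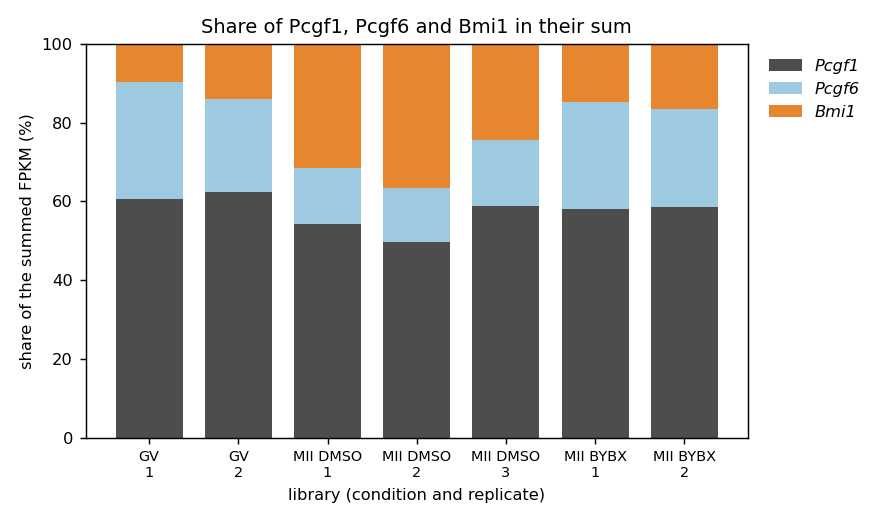
Stacked bars give the share of Pcgf1, Pcgf6 and Bmi1 in their summed FPKM (y axis, percent) for each of the 7 libraries (x axis). The Bmi1 share lies at 24.3% to 36.6% in the 3 DMSO libraries and at 9.77% to 16.5% in the 4 others, and Pcgf1 holds the largest share in every library.

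The rest of the Polycomb system was described with a list of 49 genes, of which 37 passed the level filter. On the deposited scale 31 of the 37 fell from GV to MII with DMSO and 0 rose, also at an unadjusted p under 0.05, with a median log2 change of -1.09, where 88.3% of all entries were lower. After scaling to the same total 9 were lower and 19 higher, where 49.5% and 23.3% of all entries were, and after centring 3 and 24, where 26.7% and 48.8% were. Of the PRC2 genes in that list 5 of 6 were lower (median -0.84), of canonical PRC1 6 of 7 (median -1.36), of variant PRC1 14 of 16 (median -1.31), of the PR-DUB complex, which removes ubiquitin from H2A, and its partners 3 of 4 (median -1.63) and of the other erasers 3 of 4 (median -0.83). The 6 not called were Aebp2, Phc2, Yaf2, Auts2, Foxk1 and Kdm6a, named here for the size of that group. The size of the fall depended on the GV libraries. Without GV replicate 1 the median log2 change was -0.93 over the list and -0.64 over its PRC2 genes, against -1.71 over all entries. With BYBX 18 of the 37 were higher than with DMSO and 0 lower (median 0.59), where 65.2% of all entries were higher, and without BYBX replicate 1 there were 10, where 55.8% were. By list they were 2 of 6 in PRC2, 4 of 7 in canonical PRC1, 10 of 16 in variant PRC1, 2 of 4 in PR-DUB and 0 of 4 erasers. After scaling to the same total 8 were higher and 6 lower, where 39.9% and 8.22% of all entries were, and after centring 3 and 22, where 18.4% and 43.9% were. Against GV 18 of the 37 were lower with BYBX and 0 higher (median -0.64), where 69.2% of all entries were lower. There were 8 without GV replicate 1, where 51.7% of all entries were lower, and 10 without BYBX replicate 2, where 58.5% were lower and 1.15% higher, 2 of the list among them.

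On the log2(FPKM + 1) scale the largest changes in that list were in partners of the variant complexes. That scale understates low genes: Cbx8 of canonical PRC1, named after its values were seen, was at 2.50 and 2.62 FPKM in GV, listed at 0 in all 3 DMSO libraries and at 1.09 and 2.22 FPKM with BYBX. Kdm2b, which brings the PCGF1 complex to CpG islands, went from 104 and 87.6 FPKM in GV to 5.11, 6.19 and 6.58 FPKM in MII with DMSO and 37.5 and 22.9 FPKM with BYBX. The 3 groups did not overlap, with log2 changes of -3.80 ± 0.27 for DMSO against GV, 2.13 ± 0.27 for BYBX against DMSO and -1.67 ± 0.30 for BYBX against GV. Skp1a, its partner in that complex and a general subunit of SCF ubiquitin ligases, ran from 1691 and 1473 FPKM to 125, 135 and 147 FPKM and then 578 and 462 FPKM with BYBX. L3mbtl2, a subunit of the PCGF6 complex, ran from 20.2 and 15.7 FPKM to 1.52, 1.20 and 1.90 FPKM and then 7.64 and 8.79 FPKM with BYBX. Both showed the order GV, then BYBX, then DMSO with no overlap. Kdm2b, Skp1a and L3mbtl2 were named by a rule that required no overlap. In the comparisons they were named for, that trait was therefore fixed by the choice. The share of all entries with no overlap was not computed. For these 3 genes the difference of DMSO from GV and of BYBX from DMSO passed in the same direction under both other scalings, the smallest log2 changes being -0.60 and 0.59, for L3mbtl2 after centring. Pcgf3, the PCGF of another variant complex, was at 11.9 and 3.50 FPKM in GV, a wide spread, and at 1.39 and 2.08 FPKM with BYBX (log2 change -1.49 ± 0.39, limma adjusted p = 0.0044), and it did not pass without GV replicate 1 (limma adjusted p = 0.093).

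Ezhip, listed under its older symbol AU022751 and known as an inhibitor of PRC2, was picked out after its values were seen, as the most abundant gene of the list in GV. It stood at 1939 and 1522 FPKM in GV, 700.3, 919.8 and 936 FPKM in MII with DMSO and 1807 and 1110 FPKM with BYBX. The DMSO libraries were below all others, and GV and BYBX overlapped. The log2 change was -1.02 ± 0.26 for DMSO against GV (limma adjusted p = 0.0022) and 0.75 ± 0.26 for BYBX against DMSO (limma adjusted p = 0.022). The fall did not pass without GV replicate 1 (limma adjusted p = 0.053), and the rise did not pass without BYBX replicate 1 (limma adjusted p = 0.28), without DMSO replicate 1 (limma adjusted p = 0.059) or with no filter on level (limma adjusted p = 0.16). Relative to the rest of the library Ezhip went the other way, with log2 changes of 0.86 at the same total and 1.28 after centring for DMSO against GV.

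**Figure D4:**
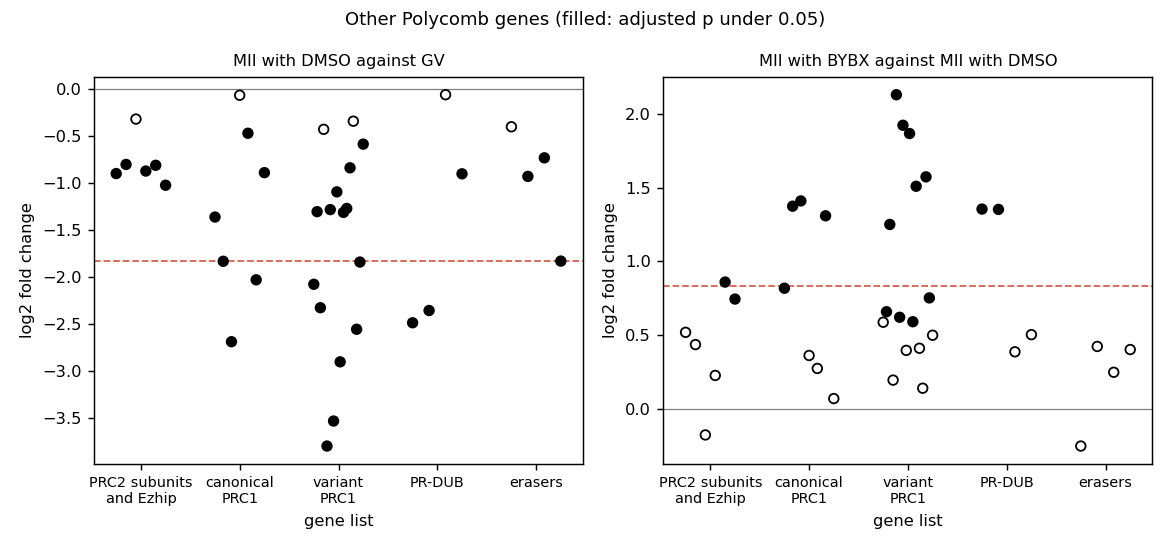
Each point is 1 of the 37 tested other Polycomb genes, with the log2 fold change on the deposited scale on the y axis and the gene list on the x axis. Filled points passed an adjusted p under 0.05 and the dashed line is the median of all tested entries, -1.83 on the left and 0.84 on the right. The variant PRC1 list, the largest with 16 tested genes, has the widest range in both panels, and a larger list can span more. It runs from -3.80 (Kdm2b) to -0.34 (Auts2) on the left and from 0.14 (Auts2) to 2.13 (Kdm2b) on the right.

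The genes whose pattern over the 7 libraries was most like that of a member were sought for Ezh2 and Rnf2, by the Euclidean distance between log2(FPKM + 1) values centred on each gene's own mean, among 9122 entries. For Ezh2 they were Glt8d1 (distance 0.120), Zmym4 (0.163) and Akap9 (0.165). Glt8d1 was at 8.51 and 8.36 FPKM in GV, 2.94, 3.74 and 3.15 FPKM in MII with DMSO and 5.50 and 4.68 FPKM with BYBX, in the same order of groups as Ezh2 and at a far lower level. For Rnf2 they were Chst5 (0.179), Esco1 (0.218) and Acbd5 (0.222). Esco1, which acetylates cohesin, was at 26.2 and 18.0 FPKM in GV, 11.8, 12.9 and 8.59 FPKM in MII with DMSO and 11.2 and 14.4 FPKM with BYBX, below Rnf2 in every library. The likeness is over 7 libraries of 3 groups and is a description only.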

How the data were processed

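Smart-seq2 had been run on 7 libraries, each of 10 mouse oocytes. Per the labels and the study's methods, the authors trimmed reads with Trim Galore 0.6.7, aligned them to mm10 with HISAT2 2.2.1 and computed FPKM with Cufflinks 2.2.1 on UCSC gene models. They scaled the FPKM to the ERCC spike-in and to the GV samples of each batch before depositing 1 table a library, and the factors are not stated. No ERCC entries are listed. The values read were FPKM and not read counts, so depth is unknown. The small number of libraries limits the precision, and how far depth does so is unknown. Of 25912 entries, 4 with a missing value were dropped. Values were tested as log2(FPKM + 1) with limma 3.58.1 in R 4.3.3 (lmFit, eBayes with trend), with 3 group means and 4 residual degrees of freedom, on the 9202 entries averaging 1 FPKM or more over the 3 group means, and Benjamini-Hochberg adjustment at 0.05. The fit was run on simulated data, with noise drawn separately for each entry and few entries changed. Most entries moved together in the real libraries, so that run does not bear on the p-values given here. Fold changes on this scale understate those of low genes. Ratio tests were exact permutations over libraries (scipy 1.17.1).

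The members and lists were chosen with earlier results of these data known. Named genes were the 10 members, for each comparison and direction the 3 other Polycomb genes with the largest change among those called and not overlapping, and the 3 entries most like Ezh2 and Rnf2. Alternatives were the pseudocount, the filter, 2 other scalings, the groups in the fit, a replicate block, no trend, a minimum of 2-fold and leaving out each library, with repeated names left out and ratios with no pseudocount added after seeing the data. Sequences are from GENCODE vM21.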

Additional observations from a re-analysis of the deposited data

How the results depend on the processing

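Scaling decided most directions, by its own construction: it moved the median log2 change of all entries from -1.83 to -0.56 (same total FPKM) and 0.47 (median centring) for MII with DMSO against GV, from 0.84 to 0.34 and -0.44 for BYBX against DMSO, and from -0.99 to -0.17 and 0.04 for BYBX against GV. For MII with DMSO against GV, same total FPKM gave 1 member lower and 4 higher and 9 other Polycomb genes lower and 19 higher, and centring gave 0 and 8 members and 3 and 24 others. The log2 changes then were, at the same total and after centring, 0.087 and 0.70 for Ezh1, 0.79 and 1.23 for Ezh2, 0.22 and 0.67 for Eed, 0.55 and 0.99 for Suz12, 0.93 and 1.49 for Jarid2, 0.78 and 1.26 for Rnf2, 0.083 and 0.51 for Pcgf1, 1.63 and 2.07 for Bmi1 and 0.86 and 1.28 for Ezhip, whereas Pcgf6 stayed negative in both. For BYBX against DMSO, same total gave 2 members lower and 1 higher and 6 others lower and 8 higher, and centring gave 7 and 0 members and 22 and 3 others. The log2 changes were, in the same order, -0.38 and -0.78 for Ezh2, -0.51 and -0.91 for Eed, -0.33 and -0.78 for Jarid2, -0.57 and -0.98 for Rnf2, -0.12 and -0.50 for Pcgf1 and -0.15 and -0.53 for Ezhip, and for Ezh1 -0.34 after centring. Pcgf6 stayed positive in both. For BYBX against GV, same total gave 0 members lower and 2 others lower and 4 higher, and centring gave 0 members lower and 1 higher and 1 other lower and 8 higher. The log2 changes were 0.25 and 0.36 for Ezh1, 0.40 and 0.45 for Ezh2, 0.60 and 0.71 for Jarid2, 0.22 and 0.28 for Rnf2, 0.020 and 0.060 for Pcgf6 and 0.45 and 0.50 for Bmi1, and for Pcgf1 0.0042 after centring.

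A minimum of 2-fold left 20 other Polycomb genes that fell from GV to MII with DMSO, 1 member and 11 others higher with BYBX than with DMSO, and 3 members and 10 others lower with BYBX than in GV, where 74.9%, 42.1% and 49.2% of all entries passed the same rule. No filter on level gave 11 others lower in that last comparison, and under it Pcgf1 (BYBX against DMSO), Rnf2 and Pcgf6 (BYBX against GV) no longer passed and Ezh2 (BYBX against GV) did, and the cause was not tested. Leaving out each library in turn gave 1 to 3 members and 10 to 21 others higher with BYBX than with DMSO, and 2 to 6 members and 8 to 17 others lower and 0 to 2 others higher with BYBX than in GV. It moved the Suz12 change between BYBX and DMSO from -0.43 to 0.26, and for BYBX against GV the log2 ratio of Ezh2 to Ezh1 from -0.17 to 0.35 and that of Pcgf6 to Pcgf1 from -0.12 to 0.23. A lone sample was then assumed to vary like the other groups. The pseudocount of 0.1, the filter at 5 FPKM and leaving out repeated names changed no call of the members, whereas a fit of only the groups compared lost Rnf2 (BYBX against GV, limma adjusted p = 0.052) and no trend gained Ezh2 there (limma adjusted p = 0.038).

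The replicate numbers are shared by the groups, with nothing in the labels to say that they mark a pair. Deviations of same-numbered libraries correlated at 0.487 and 0.282 for GV and DMSO, -0.330 for GV and BYBX, and -0.601 and -0.348 for DMSO and BYBX. With a replicate block 8 members were lower in MII with DMSO, 3 were higher with BYBX than with DMSO and 4 were lower with BYBX than in GV, where Rnf2 no longer passed (limma adjusted p = 0.062). The planned ratio of Rnf2 to Ring1 was not run because Ring1 is listed at 0 in 3 libraries.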
